A study of Rattus norvegicus with 46 samples.

Results

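The lower part of the duodenal villus was compared between iron-repleted and iron-deficient Wistar rats. All arrays that the labels name as villus bottom of these 2 groups were taken, 3 repleted and 4 deficient, 7 of the 46 arrays of the series, with 1 array per rat. The deficient rats were 1 month old at the start, received a low-iron diet, and over 4 weeks 2 to 3 ml of blood was drawn from them every 3 days. The repleted rats were treated in the same way and then drank water with 50 µM ferric ammonium citrate for the last 3 days. A further repleted rat died under anesthesia, which left 3. Low-iron diet and bleeding are therefore shared by both groups, and the difference that the labels give between them is the iron in the drinking water. Control Wistar rats of the same age on a normal diet (4 arrays) are given beside them as the reference level. The tests also take their spread from Belgrade (b/b) rats, given no iron or iron for 3 or 6 days. A 1-cm segment of the duodenum was cut in a cryostat at right angles to the villus, the sections nearest the crypt were pooled, and RNA of each rat was hybridised to an Affymetrix rat array. Such sections hold every cell type at that height. The labels give neither sex nor body iron status.

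The duodenum is where the body takes up dietary iron. Ferric iron is reduced at the brush border by the reductase Cybrd1, enters the enterocyte through the transporter Slc11a2 (DMT1), and leaves it across the basolateral membrane through the exporter Slc40a1 (ferroportin), with the ferroxidase Heph (hephaestin). A low iron supply is known to raise this set of genes through hypoxia-inducible transcription factors and iron-regulatory proteins, and iron feeding is known to load the enterocytes that are then on the villus. The bottom of the villus holds enterocytes that have recently left the crypt, goblet cells, and the connective tissue and smooth muscle strands of the villus core.

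Levels below are log2 normalised intensities, differences are repleted minus deficient on that scale, and errors of differences are standard errors (SE). Every single-gene test is the two-sided limma test, with p-values adjusted by Benjamini-Hochberg over 26517 probe sets. Each comparison was made with all 3 repleted rats and again without repleted rat 3, because that array stood apart. Its smooth muscle and stroma markers had a mean level of 15.17, against 12.73 and 12.88 in repleted rats 1 and 2 and 12.22 to 12.71 in the deficient rats. Control rat 3 had the same marker level, 15.17. Xist, the transcript of the inactive X chromosome, was at 14.41 in repleted rat 3 and between 5.82 and 8.90 in the other 6 rats of the comparison. Control rat 4 was also high for Xist, at 14.65, while the other controls were at 7.25 to 9.26. The share of probe sets that lay more than 2-fold from the deficient mean was 30.4% in repleted rat 3, 15.5% in repleted rat 1 and 19.3% in repleted rat 2. Deficient rats 1 to 3, each compared with the mean of the other deficient rats, gave 14.9% to 15.5%, and deficient rat 4 gave 20.7%. Repleted rat 1 was thus level with the highest of deficient rats 1 to 3, and repleted rat 2 lay between them and deficient rat 4. In deficient rat 1 the exocrine pancreas markers had a mean level of 15.43, against 7.87 to 7.94 in the other deficient rats and 7.76 to 7.98 in the repleted rats. The number of rats limits the precision of every value, and the labels do not say whether each rat was processed separately at every step.

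With all 3 repleted rats, 0 of 26517 probe sets passed an adjusted p of 0.05 in limma (0% called). The lowest adjusted p was 0.142. At an unadjusted p under 0.05 there were 3292 probe sets (12.4%), 1418 higher (5.35%) and 1874 lower (7.07%) in the repleted rats. The repleted and deficient rats did not overlap in 2117 probe sets (7.98%). Without repleted rat 3, 1 probe set passed (0.00377%), 2225 had an unadjusted p under 0.05 (8.39%) and 4193 did not overlap (15.8%). The count depended on single rats. Without deficient rat 4, 374 probe sets passed with all 3 repleted rats (1.41%), 78 higher (0.294%) and 296 lower (1.12%), and 105 passed with repleted rat 3 left out as well (0.396%), of which 86 were among the 374. Without repleted rat 1 the count was 105, without repleted rat 2 it was 4, and without deficient rat 1, 2 or 3 it was 0. A call below is therefore named with the rat it needs. The labels give no ground for leaving out deficient rat 4. For genes such as Ncoa4 (13.02) and Fbxl5 (12.43) that rat was the deficient rat nearest the repleted rats. Leaving it out then widens the difference by construction. Calls made without it show dependence on 1 rat and are no support for a difference. Gene lists are counted over 12975 genes, each by its brightest probe set. With all 3 repleted rats 50.4% of these genes were higher and 49.6% lower, 6.28% were higher and 7.44% lower with an unadjusted p under 0.05, and 4.14% were higher and 3.9% lower without overlap. Without rat 3 these shares were 52.3% and 47.7%, 3.19% and 5.03%, and 8.12% and 7.25%.

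The genes of iron entry were within or near the range of the deficient rats in repleted rats 1 and 2 and below every control in repleted rat 3. No difference between the groups passed the test. The level of Slc11a2 was 16.44, 17.21 and 12.46 in repleted rats 1 to 3 and 16.99, 16.93, 17.03 and 16.00 in deficient rats 1 to 4, with 15.24, 15.20, 13.74 and 14.08 in the controls. Repleted rat 1 lay among the deficient rats and repleted rat 2 just above them, and repleted rat 3 lay below every control. The lowest control was control rat 3, which had the muscle marker level of repleted rat 3 (15.17). It was also the lowest control for Slc40a1, Heph and Hmox1. For Cybrd1 it was not the lowest (11.87, with control rat 2 at 11.70), and for Tfrc (15.82) and Alox15 (8.58) it was the highest control. The Slc11a2 difference was -1.37 ± 0.68 (SE, adjusted p = 0.419) with all 3 rats and 0.086 ± 0.35 (SE, adjusted p = 0.965) without rat 3. With the smooth muscle and stroma marker level as a covariate it was -0.24 ± 0.50 (SE, adjusted p = 0.914). The less bright of the 2 Slc11a2 probe sets gave -0.76 and 0.37 with and without rat 3.

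For the reductase Cybrd1 the repleted rats had levels of 14.53, 16.23 and 11.48 and the deficient rats 16.16, 16.07, 16.14 and 13.42, while the 4 controls lay between 11.70 and 12.01. The groups overlapped. Deficient rat 4 was the low one of its group, as it was for Slc11a2, and repleted rat 1 lay between it and the other deficient rats. The difference was -1.36 ± 0.80 (SE, adjusted p = 0.496), and -0.065 ± 0.67 (SE, adjusted p = 0.988) without rat 3. At the top of the villus the same rats were almost alike. Slc11a2 there was at 17.28, 17.41 and 16.95 in the repleted rats (difference 0.042, and 0.17 without rat 3), and Cybrd1 was at 17.33, 17.51 and 16.93 (difference -0.21, and -0.046 without rat 3).

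Because both genes were low in repleted rat 3 and lowest among the deficient rats in rat 4, the 250 bases before their starts are shown, from RefSeq on the GRCr8 build. They were searched on both strands for the core of the hypoxia response element, ACGTG or GCGTG, and for the core of the metal response element, TGCACNC or TGCGCNC. Capitals mark hypoxia cores, here as the reverse strand of GCGTG, and each sequence runs in the direction of its gene, on the minus strand of chr7:133417789-133418038 for Slc11a2 and on the plus strand of chr3:76342343-76342592 for Cybrd1.
Slc11a2: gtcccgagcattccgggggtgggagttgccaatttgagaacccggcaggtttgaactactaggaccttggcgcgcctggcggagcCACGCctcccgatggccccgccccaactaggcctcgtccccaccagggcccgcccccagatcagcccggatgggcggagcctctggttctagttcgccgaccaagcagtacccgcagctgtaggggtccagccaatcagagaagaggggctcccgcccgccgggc
Cybrd1: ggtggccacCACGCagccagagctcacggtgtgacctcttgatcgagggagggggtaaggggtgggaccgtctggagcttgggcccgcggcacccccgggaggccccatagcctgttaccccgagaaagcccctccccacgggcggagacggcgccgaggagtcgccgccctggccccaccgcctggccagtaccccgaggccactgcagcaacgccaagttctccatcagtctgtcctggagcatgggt
Each holds 1 hypoxia core, 165 bases before the start of Slc11a2 and 241 bases before that of Cybrd1, and no metal core. A second start of Slc11a2 in the same table has neither. Slc40a1, Heph and Tfrc were also low in repleted rat 3 and lowest among the deficient rats in rat 4, and were searched too. Slc40a1 held neither core, Heph 1 hypoxia core and no metal core, and Tfrc 2 hypoxia and 3 metal cores. Of 33469 promoters of this length 36.7% hold a hypoxia core and 20.6% a metal core, so a match in this window is common.

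**Figure D1:**
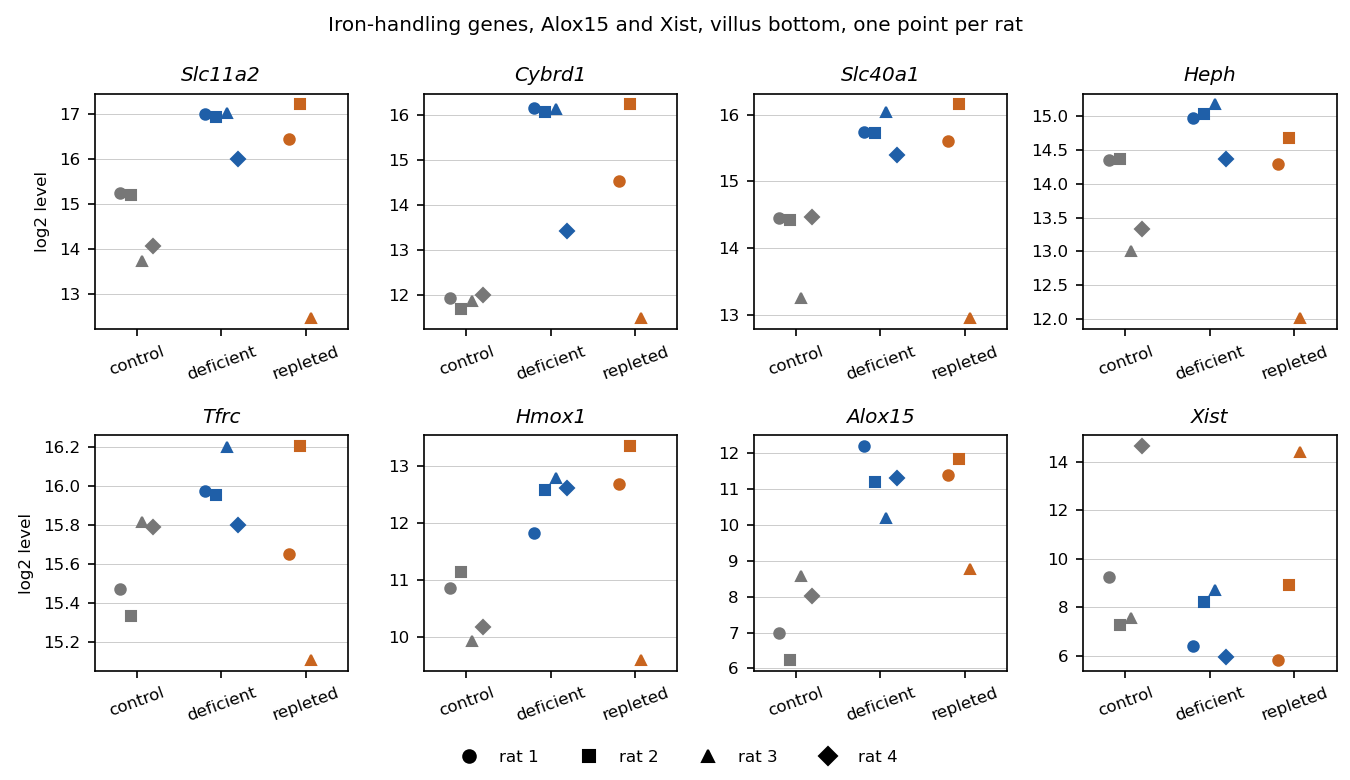
Log2 level of 8 genes at the villus bottom (vertical axis) in control, deficient and repleted rats (horizontal axis), with 1 point per rat and the marker shape giving the rat number. Repleted rat 3 (triangle) is the lowest of the 7 low-iron rats for Slc11a2, Cybrd1, Slc40a1, Heph, Tfrc, Hmox1 and Alox15 and the highest for Xist, while repleted rats 1 and 2 lie near the deficient rats.

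The exporter and its ferroxidase were also lowest in repleted rat 3. Slc40a1 was at 15.60, 16.16 and 12.94 in the repleted rats and at 15.74, 15.73, 16.04 and 15.39 in the deficient rats, against 13.25 to 14.47 in the controls. Repleted rats 1 and 2 were again within or just above the range of the deficient rats. The difference was -0.82 ± 0.50 (SE, adjusted p = 0.511), 0.15 ± 0.32 (SE, adjusted p = 0.922) without rat 3, and 0.053 with the muscle marker level as a covariate. The 2 less bright Slc40a1 probe sets gave -1.25 (adjusted p = 0.294) and -1.07 (adjusted p = 0.380) with all rats and -0.65 and -0.14 without rat 3, so the probe sets disagree in sign when rat 3 is left out. Heph was at 14.29, 14.68 and 12.001 after repletion and at 14.98, 15.04, 15.18 and 14.38 in deficiency. The 3 measured genes of iron export had medians of -0.82 with all rats and 0.15 without rat 3, or -0.14 without rat 3 over all their probe sets, and Heph was the 1 with an unadjusted p under 0.05 with all 3 rats (-1.24 ± 0.44 SE, adjusted p = 0.270). Without rat 3 the difference was -0.41 ± 0.30 (SE, adjusted p = 0.748), and repleted rat 1 alone then lay below the deficient rats.

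Of 8 measured genes of apical iron and heme uptake, 1 had an unadjusted p under 0.05 in the higher direction and 0 in the lower, where 6.28% and 7.44% of all 12975 genes did. Their median difference was 0.074 with all 3 rats and 0.22 without rat 3, beside 0.0040 and 0.022 over all genes, and centring each array on its median turned the first to -0.016, as taking all probe sets of each gene did (-0.094). That gene was Hpx, which codes for the heme-binding protein hemopexin and not for a transporter of the apical membrane. It was at 9.14, 8.94 and 8.07 in the repleted rats and at 6.86, 6.73, 6.04 and 6.94 in the deficient rats, without overlap, all of them dim values below the median level of 9.91. The difference was 2.08 ± 0.72 (SE, adjusted p = 0.257) and 2.40 ± 0.83 (SE, adjusted p = 0.455) without rat 3.

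Among genes of iron storage and sensing, a pair that acts on ferritin and on iron-regulatory proteins was lower at the villus bottom in every repleted rat, rat 3 included. Ncoa4, the receptor that delivers ferritin to lysosomes, was at 12.68, 12.28 and 12.30 in the repleted rats and at 13.47, 13.29, 14.43 and 13.02 in the deficient rats. The groups did not overlap, and the 4 controls, at 13.27 to 13.98, also lay above all repleted rats. The difference was -1.13 ± 0.27 (SE, adjusted p = 0.158) and -1.07 ± 0.31 (SE, adjusted p = 0.388) without rat 3. Fbxl5, the iron-sensing subunit of the ubiquitin ligase for iron-regulatory proteins, was at 12.31, 11.93 and 11.90 against 13.07, 13.11, 12.64 and 12.43. Its groups did not overlap either, and its controls were at 12.60 to 12.99. The difference was -0.76 ± 0.18 (SE, adjusted p = 0.157) and -0.69 ± 0.20 (SE, adjusted p = 0.391) without rat 3. Neither passed with all rats. Without deficient rat 4 both did, Ncoa4 at -1.31 (adjusted p = 0.0251) and Fbxl5 at -0.89 (adjusted p = 0.0204). At the villus top rat 3 went the other way. Ncoa4 there was at 11.48, 11.32 and 16.32 in the repleted rats against 11.67 to 13.03 in the deficient rats. Fbxl5 was at 13.44, 13.38 and 14.20 against 13.46 to 13.78. The top differences were 0.42 and 0.053 with all rats, and -1.22 and -0.21 without rat 3.

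These were the 2 of 12 measured storage and sensing genes whose groups did not overlap in the lower direction (3.9% of all genes), and the list's median was -0.031, or 0.039 without rat 3. Hfe, which modulates iron sensing at the cell surface, was at 8.93, 10.42 and 9.17 in the repleted rats and at 6.77, 9.33, 7.54 and 8.23 in the deficient rats, so that deficient rat 2 overlapped with the repleted rats. The difference was 1.54 ± 0.57 (SE, adjusted p = 0.287). The transferrin receptor Tfrc was at 15.65, 16.21 and 15.11 against 15.98, 15.95, 16.20 and 15.80, a difference of -0.33 ± 0.18 (SE, adjusted p = 0.464) and -0.052 ± 0.16 (SE, adjusted p = 0.949) without rat 3. Its groups overlapped. A less bright Tfrc probe set gave -0.77 and -0.20.

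Hmox1, the heme oxygenase that frees iron from heme, was at 12.69, 13.34 and 9.60 after repletion and at 11.83, 12.57, 12.79 and 12.61 in deficiency, with controls at 9.94 to 11.14. Rat 3 lay below the deficient range and below every control, rat 1 within it, and repleted rat 2 was above it. The difference was -0.57 ± 0.56 (SE, adjusted p = 0.706) with all rats and 0.56 ± 0.34 (SE, adjusted p = 0.679) without rat 3, a change of sign. Alox15, an arachidonate lipoxygenase, was at 11.41, 11.84 and 8.78 against 12.21, 11.20, 10.19 and 11.30, where controls had 6.23 to 8.58. Repleted rats 1 and 2 were thus among the deficient rats and above all controls. The difference was -0.55 ± 0.62 (SE, adjusted p = 0.753) and 0.40 ± 0.54 (SE, adjusted p = 0.879) without rat 3. At the villus top it was -2.49, and -0.67 without rat 3.

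The wider heme list had 13 measured genes, 12 of them lower with all 3 rats and 3 with an unadjusted p under 0.05, with a median of -0.51. Without rat 3 the median was -0.054 and 1 gene had such a p. The members were Blvra and Blvrb, the biliverdin reductases (-0.82 and -0.64, and -0.40 and -0.74 without rat 3), and Abcg2, a porphyrin exporter (-1.87 and -0.29). The 31 measured hypoxia-inducible genes had medians of -0.080 with all rats and 0.081 without rat 3, or -0.43 and 0.0084 after centring each array on its median, and with all rats 1 was higher and 1 lower at an unadjusted p under 0.05. Pgk1, a glycolytic enzyme, was the lower one (-0.51 ± 0.17 SE, adjusted p = 0.245, and -0.66 with adjusted p = 0.0385 without deficient rat 4), and P4ha1, a collagen prolyl hydroxylase, the higher one (1.09). Without rat 3 they differed by -0.28 and 0.40.

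The mean level of the goblet cell markers was lower in each of the 3 repleted rats, though with all rats no single marker passed the test. The mean level of 12 goblet cell markers was 14.65, 14.63 and 14.39 in repleted rats 1 to 3 and 14.96, 15.02, 15.10 and 14.98 in deficient rats 1 to 4, so the groups did not overlap. Repleted rats also lay below the controls, which were at 14.74 to 14.86. At the top of the villus of the same rats the order was the same, with 13.56, 13.75 and 13.82 in the repleted rats and 14.13 to 14.52 in the deficient rats. Separate list means at the bottom were not particular to goblet cell markers. Copper and zinc handling, at 12.02, 12.125 and 11.33 against 12.14 to 12.20, did not overlap either. Nor did smooth muscle and stroma markers, at 12.73, 12.88 and 15.17 against 12.22 to 12.71. In bulk sections fewer goblet cells, less RNA per goblet cell and a different cell make-up of the sections taken cannot be told apart.

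Of the 12 markers 10 were lower with all 3 rats, with a median of -0.35, which was -0.23 over all probe sets of each gene and -0.50 after median centring, and 4 of them had an unadjusted p under 0.05 and no overlap between groups, where 7.44% and 3.9% of all genes did in that direction. Without rat 3 all 12 were lower, with a median of -0.29, 4 with an unadjusted p under 0.05 and 5 without overlap, against 5.03% and 7.25% of all genes. Zg16, a lectin of the mucus granule, was at 15.99, 15.98 and 15.33 in the repleted rats and at 16.52, 16.49, 16.41 and 16.44 in the deficient rats. The deficient rats were close together (SD 0.046, n = 4) and all repleted rats lay below them. The difference was -0.70 ± 0.14 (SE, adjusted p = 0.142, 0.616-fold) and -0.48 ± 0.11 (SE, adjusted p = 0.298) without rat 3. Tff3, the trefoil peptide of goblet cells, was at 16.28, 16.05 and 16.26 against 16.83, 16.84, 16.64 and 16.45, which again did not overlap. Its difference was -0.49 ± 0.13 (SE, adjusted p = 0.183) and -0.52 ± 0.15 (SE, adjusted p = 0.367) without rat 3.

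Spink4, a secreted peptide of the same cells, differed most in size among these 4. It was at 15.26, 14.29 and 15.42 in the repleted rats and at 15.65, 16.11, 16.13 and 16.38 in the deficient rats, with repleted rat 2 far below the rest. The difference was -1.07 ± 0.42 (SE, adjusted p = 0.307), -1.29 ± 0.47 (SE, adjusted p = 0.479) without rat 3, and -2.22 at the villus top. Agr2, which folds mucins in the endoplasmic reticulum, was at 16.79, 16.35 and 17.11 against 17.21, 17.41, 17.13 and 17.15, with rat 3 just below the lowest deficient rat. It differed by -0.48 ± 0.21 (SE, adjusted p = 0.372) and -0.66 ± 0.23 (SE, adjusted p = 0.455) without rat 3. The mucin Muc2 differed by -0.16, and by -0.27 without overlap when rat 3 was left out, whereas Fcgbp, which binds mucin in the gel, differed by 0.065 and -0.0012. None of the 12 passed an adjusted p of 0.05 with all rats. Without deficient rat 4, Zg16 (-0.71, adjusted p = 0.0242) and Tff3 (-0.57, adjusted p = 0.0361) passed, and Zg16 also passed without repleted rat 1 (-0.81, adjusted p = 0.0299).

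**Figure D2:**
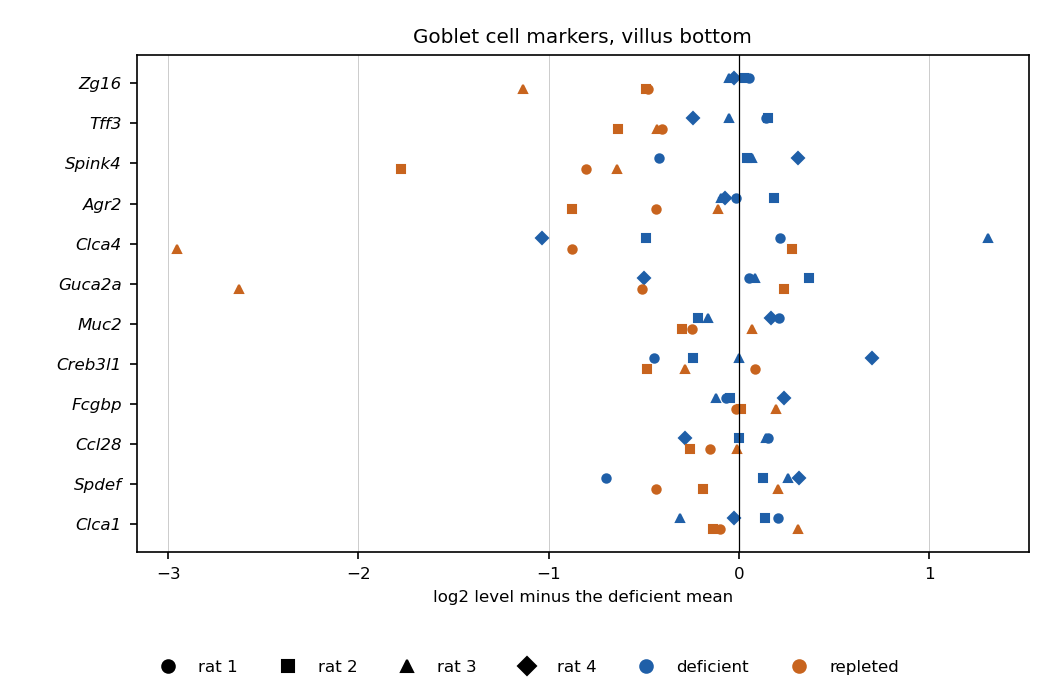
Each goblet cell marker at the villus bottom (vertical axis, ordered by p) as log2 level minus the deficient mean (horizontal axis), with deficient rats in blue, repleted rats in orange and the marker shape giving the rat number. For Zg16, Tff3, Spink4 and Agr2 all 3 repleted rats lie to the left of all 4 deficient rats, while Fcgbp and Clca1 show overlap.

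Genes of cholesterol synthesis were lower with all 3 repleted rats, mostly through rat 3. The mean level of 18 measured genes was 13.61, 13.34 and 11.65 in the repleted rats and 13.64, 13.87, 13.48 and 13.59 in the deficient rats, against 12.07 to 12.80 in the controls. Repleted rat 1 was within the deficient range, rat 2 just below it and rat 3 below every control. With all rats 17 of 18 were lower, 10 of them with an unadjusted p under 0.05, and the median was -0.70. Without rat 3 there were 14 lower, 2 with such a p, and the median was -0.21.

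Cyp51, a sterol demethylase, kept its groups apart. It was at 15.46, 15.43 and 13.99 in the repleted rats and at 15.89, 16.21, 16.03 and 15.57 in the deficient rats, all of which were above the controls at 14.43 to 15.16. The difference was -0.96 ± 0.27 (SE, adjusted p = 0.207) and -0.48 ± 0.21 (SE, adjusted p = 0.559) without rat 3. Idi1, the isomerase of isoprenoid units, was at 15.12, 14.66 and 12.82 against 15.81, 15.95, 15.46 and 14.98. Deficient rat 4 overlapped with repleted rat 1. Its difference was -1.35 ± 0.36 (SE, adjusted p = 0.183) and -0.66 ± 0.24 (SE, adjusted p = 0.489) without rat 3, and it passed without deficient rat 4 (-1.54, adjusted p = 0.0485) or without repleted rat 1 (-1.81, adjusted p = 0.0321). Msmo1, a sterol oxidase, and Sqle, the squalene epoxidase, differed by -1.46 and -1.68 with all rats and by -0.56 and -0.43 without rat 3. Sqle passed without repleted rat 1 (-2.49, adjusted p = 0.0487).

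Digestive and absorptive genes of the enterocyte changed sign with rat 3. Lipid absorption had a median of -0.38 over 17 genes with all rats, 14 of them lower, and 0.37 without rat 3, with 15 higher. Brush border digestion and transport had medians of -0.55 and 0.29 over 21 genes. Cd36, a fatty acid receptor, was higher without overlap in both settings (0.73 and 0.90). Slc34a2, a sodium phosphate cotransporter, was lower in every repleted rat, at 8.03, 6.64 and 8.73 against 10.06, 10.28, 10.81 and 9.26. The groups did not overlap, although the repleted values are dim, below the median level. It differed by -2.30 ± 0.79 (SE, adjusted p = 0.253), by -2.77 ± 0.88 (SE, adjusted p = 0.433) without rat 3, and by -2.35 at the top of the villus.

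**Figure D3:**
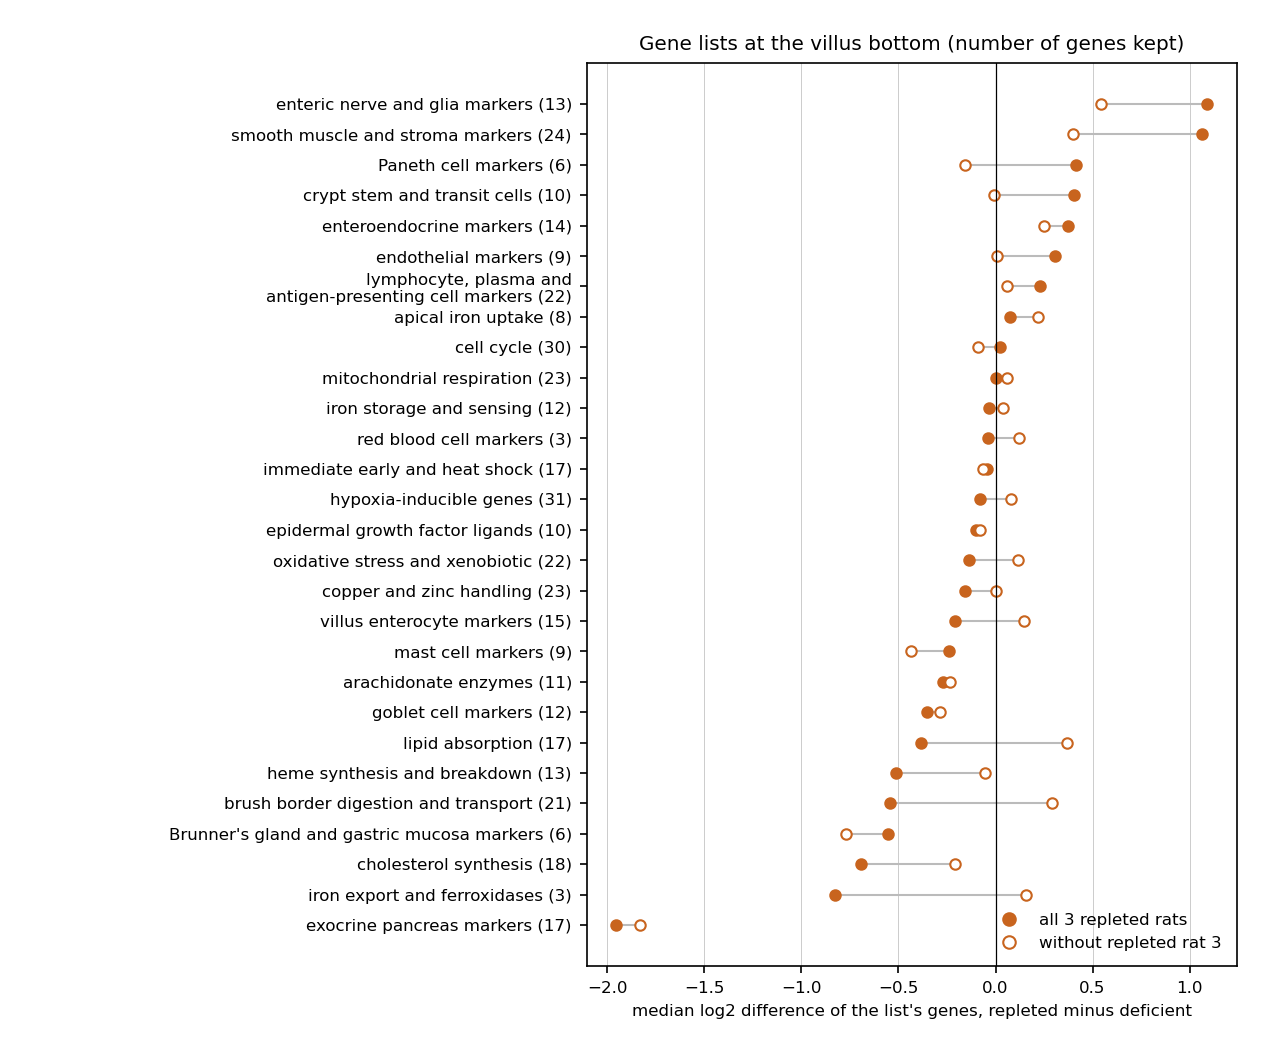
Median log2 difference, repleted minus deficient, of the genes of each list at the villus bottom (horizontal axis), with the number of genes kept in parentheses on the vertical axis. Filled points include all 3 repleted rats and open points leave out repleted rat 3, and the longest shifts are those of iron export, brush border, lipid absorption, muscle and Paneth cell lists, while the goblet cell list stays at -0.35 and -0.29.

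The cell make-up of the sections differed between rats, and the marker lists show where. All 24 smooth muscle and stroma markers were higher with all 3 rats, 13 with an unadjusted p under 0.05, with a median of 1.06. Without rat 3 there were 21 higher and 0 with such a p, and the median was 0.40. Enteric nerve and glia markers had medians of 1.09 and 0.54 over 13 genes, and their mean level was 9.39, 9.31 and 10.93 in the repleted rats and 8.51 to 9.56 in the deficient rats. Villus enterocyte markers were at 15.50, 15.64 and 14.12 in the repleted rats and 15.19 to 15.53 in the deficient rats. Crypt stem and transit cell markers were at 12.48, 12.42 and 13.70 against 12.23 to 12.67, and Paneth cell markers at 13.92, 13.67 and 14.88 against 14.04 to 14.40. Repleted rat 3 was thus highest for muscle, nerve, crypt and Paneth cell markers and lowest for enterocyte markers at the bottom. At the top of its villus the muscle markers were at 11.27, below the 12.04 to 12.36 of the deficient rats. That top array stood apart as well, with a median intensity of 1179 against 597 to 757 in the other villus top arrays. Among the repleted and deficient rats the muscle marker level was far apart only in repleted rat 3. The fits with that level as a covariate therefore cannot fully separate the markers from that rat. How far these markers account for the low iron genes of rat 3 was not tested beyond those fits.

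Markers of further cell types were in part carried by other rats. The 22 markers of lymphocytes, plasma cells and antigen-presenting cells had a median of 0.23 with all rats, 0.062 without rat 3 and -0.0055 after median centring. Mast cell markers had medians of -0.24 and -0.44 over 9 genes, enteroendocrine markers 0.37 and 0.25 over 14, and endothelial markers 0.31 and 0.0097 over 9. Brunner's gland and gastric mucosa markers had medians of -0.55 and -0.77 over 6 genes, with a wide range in the deficient rats, 8.77 to 10.20. All 17 exocrine pancreas markers were lower, with a median of -1.95, and without deficient rat 1, which carried them, the median was 0.0030.

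**Figure D4:**
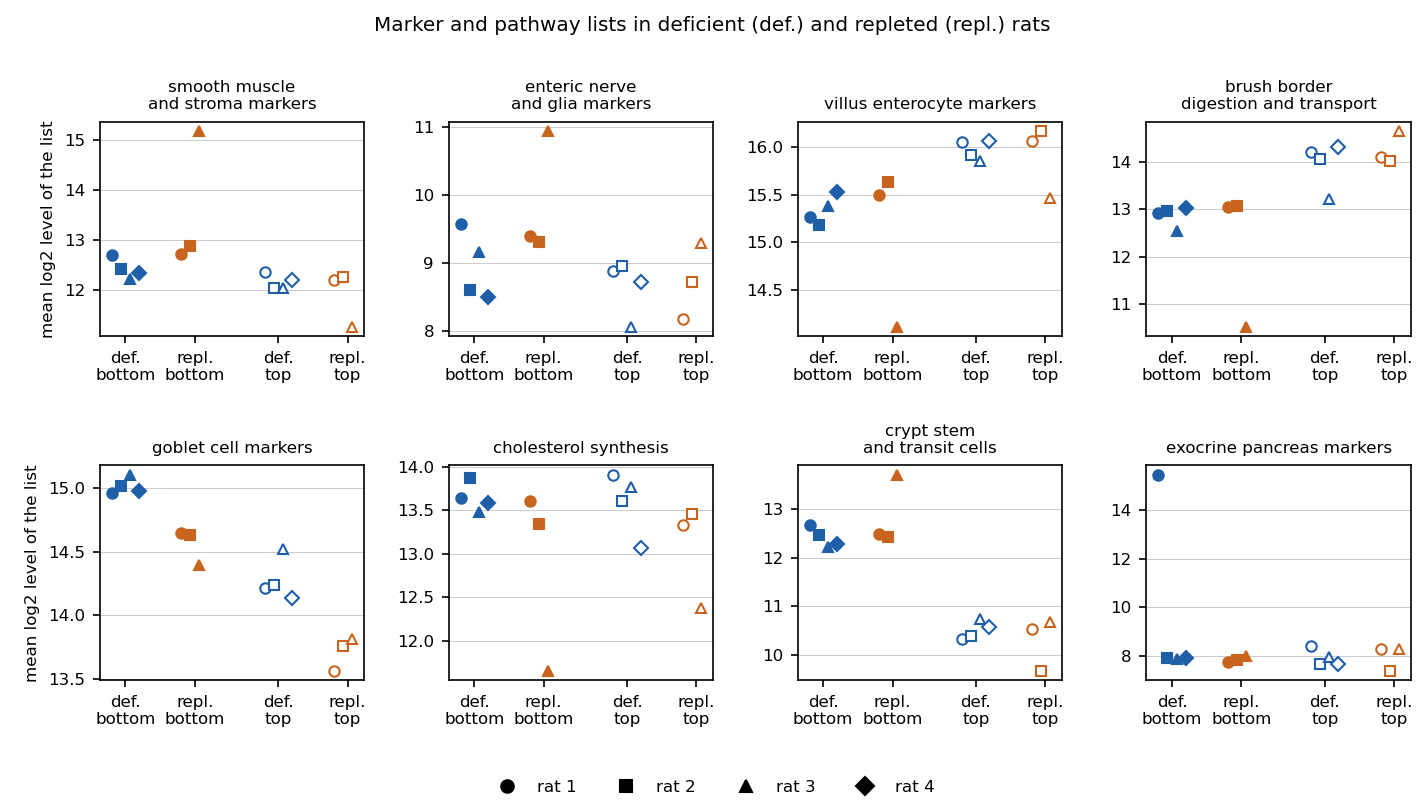
Mean log2 level of 8 gene lists (vertical axis) in deficient (blue) and repleted (orange) rats, at the villus bottom (filled) and top (open), with 1 point per rat and the marker shape giving the rat number. Repleted rat 3 (triangle) stands apart at the bottom in 6 of the lists, the goblet cell list is lower in all 3 repleted rats in both segments, and deficient rat 1 (circle) alone has pancreas markers.

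The 10 genes with the largest higher levels in all 3 repleted rats, taken among probe sets with an unadjusted p under 0.05, no overlap and a level above the median, included several genes known from muscle. Acta2, smooth muscle actin, was at 12.60, 12.82 and 15.88 against 11.75, 12.14, 11.69 and 12.14. Dmpk, a kinase of muscle, was at 12.38, 12.13 and 15.73 against 10.97, 10.70, 10.86 and 11.39. In both, repleted rat 3 was far above the other 2 repleted rats, which themselves lay above all deficient rats. Dmpk differed by 2.43 ± 0.79 (SE, adjusted p = 0.235), and by 1.27 without rat 3. Acta2 differed by 1.83 ± 0.78 (SE, adjusted p = 0.339), by 0.78 without rat 3 and by 0.20 with the muscle marker level as a covariate. Slc24a3, an ion exchanger, Tns1, an adhesion protein, Rgs5, a pericyte regulator, Pln, phospholamban of the calcium store, Rbpms, Abcg4 and the neuronal calcium-binding protein Calb2 were 1.74 to 2.36 higher, and 0.44 to 1.46 higher without rat 3.

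Pdk4, the kinase that restrains pyruvate oxidation, was the one gene of these 10 in which repleted rat 3 was not apart. It was at 12.98, 13.04 and 13.24 in the repleted rats and at 10.65, 10.22, 11.68 and 12.96 in the deficient rats, with controls at 12.03 to 13.23. The repleted rats were close together and above all deficient rats, though deficient rat 4 lay just below them. The difference was 1.71 ± 0.51 (SE, adjusted p = 0.221) and 1.64 ± 0.59 (SE, adjusted p = 0.474) without rat 3. Without deficient rat 4 it was 2.24 and passed (adjusted p = 0.0221). Pdk4 also headed the higher genes when rat 3 was left out.

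On the lower side the 10 genes were Ccdc68, Sult1b1, Tmem33, Sowahb, Abcd3, Crb3, Tc2n, Ldaf1, Bace2 and Wasf2, with differences of -1.72 to -1.20. Crb3, an apical polarity protein of epithelial cells, had the lowest unadjusted p of them (3.05e-05). It was at 12.24, 12.59 and 11.12 in the repleted rats and at 13.24, 13.45, 13.45 and 13.18 in the deficient rats, well separated, with controls at 12.46 to 13.44. It differed by -1.34 ± 0.25 (SE, adjusted p = 0.142) and by -0.91 ± 0.19 (SE, adjusted p = 0.210) without rat 3. Tmem33, a membrane protein of the endoplasmic reticulum, was at 11.40, 11.65 and 10.80 against 12.58, 13.14, 13.12 and 12.07. Repleted rats lay below all deficient rats and below all controls, at 11.96 to 12.69. It differed by -1.44 ± 0.30 (SE, adjusted p = 0.142) and -1.20 ± 0.32 (SE, adjusted p = 0.346) without rat 3.

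Tc2n was at 12.35, 12.31 and 12.18 against 13.70, 13.93, 13.66 and 12.91, with all 3 repleted rats alike, and its difference was -1.27 at the bottom and -1.31 at the top. Sult1b1, a sulfotransferase, and Ccdc68, a centriole protein, rested more on rat 3, with differences of -1.45 and -1.72 that were -0.44 and -0.91 without it. Abcd3, a peroxisomal fatty acid transporter, differed by -1.38 and -1.01, and Ldaf1, a lipid droplet assembly factor, by -1.24 and -1.23. Bace2, a membrane protease, and Wasf2, an actin regulator, differed by -1.23 and -1.20, and by -1.03 and -1.32 without rat 3. None of the 10 passed with all rats. Without deficient rat 4, Crb3 (-1.39, adjusted p = 0.0193), Tmem33 (-1.66, adjusted p = 0.0136), Tc2n (-1.48, adjusted p = 0.0165), Sowahb (-1.56, adjusted p = 0.0233), Ldaf1 (-1.42, adjusted p = 0.0317), Abcd3 (-1.49, adjusted p = 0.0408) and Ccdc68 (-1.92, adjusted p = 0.0442) did. Without repleted rat 1, Crb3 (-1.47), Abcd3 (-1.74) and Ccdc68 (-2.22) passed, and Crb3 also passed when repleted rat 2 was the one left out (-1.65, adjusted p = 0.0237).

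With repleted rat 3 left out, the same rule gave a list in which the muscle genes were absent. After Pdk4, the higher genes were Vdr, Twnk, Mink1, Tmem201, Ece1, Ltbp3, Nr1d1, Emilin1 and Tle5, with differences of 0.97 to 1.33. Vdr, the vitamin D receptor, was at 12.93 and 13.02 in repleted rats 1 and 2, at 12.22 in rat 3 and at 11.61, 11.54, 11.45 and 11.996 in the deficient rats. All 3 repleted rats exceeded all deficient rats. It differed by 1.33 ± 0.47 (SE, adjusted p = 0.469), and by 1.07 with rat 3. Twnk, the helicase of mitochondrial DNA, was at 11.76, 11.27 and 11.05 against 9.62, 10.53, 10.38 and 10.40, and controls were at 11.57 to 11.98. Repleted rats 2 and 3 lay between the 2 other groups, and repleted rat 1 lay above every control except control rat 1 (11.98). The difference was 1.28 ± 0.32 (SE, adjusted p = 0.313).

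Mink1, a kinase of the actin cytoskeleton, was at 13.40, 13.41 and 13.42 against 12.03, 11.90, 12.23 and 13.15, and Tle5, a transcriptional corepressor, at 13.98, 14.04 and 13.69 against 12.54, 12.81, 12.99 and 13.80. In both genes deficient rat 4 was close to the repleted rats. Both passed without deficient rat 4, with all 3 repleted rats kept, Mink1 at 1.36 (adjusted p = 0.00986) and Tle5 at 1.12 (adjusted p = 0.0235), and when repleted rat 3 was left out too, at 1.35 (adjusted p = 0.0308) and 1.23 (adjusted p = 0.0427). Ece1, the endothelin-converting enzyme, the matrix proteins Ltbp3 and Emilin1, and Tmem201, of the inner nuclear membrane, did not overlap with or without rat 3. With all 3 repleted rats, Ece1 (1.149, adjusted p = 0.0221), Emilin1 (1.35, adjusted p = 0.0193) and Ltbp3 (1.146, adjusted p = 0.0453) also passed when deficient rat 4 was left out. Nr1d1, a repressor of the circadian clock, was at 11.71 and 12.42 in repleted rats 1 and 2 but at 9.44 in rat 3, against 10.59 to 11.53 in the deficient rats, so that its difference was 1.00 without rat 3 and 0.13 with it.

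Lower without rat 3 were Ccdc66, Wasf2, Znrf3, Spink4, Ldaf1, Tc2n, Rbms1, Tmem33, Bag2 and Mtmr14, at -1.69 to -1.09. Ccdc66, a cilium protein, was at 9.65 and 9.37 against 11.02 to 11.43, and at 11.15 in rat 3. It had the lowest p among these 10 (-1.69 ± 0.33 SE, adjusted p = 0.105), and rat 3 did not share its low level. Znrf3, a membrane ligase that dampens Wnt signalling, was at 10.18, 9.46 and 10.15 against 11.81, 11.53, 10.76 and 10.35, and all 3 repleted rats lay below the deficient rats. Its difference was -1.29 ± 0.39 (SE, adjusted p = 0.396). With all 3 repleted rats and without deficient rat 4, Znrf3 (-1.44, adjusted p = 0.0408) and Rbms1 (-1.29, adjusted p = 0.0439) passed. Mtmr14, a phosphoinositide phosphatase, differed by -1.09 ± 0.29 (SE, adjusted p = 0.346), and passed when rat 1 was left out as well (-1.83, adjusted p = 0.00757), with repleted rat 2 then the lone rat, assumed to vary like the other groups. Ccdc66 passed when deficient rat 4 was left out along with repleted rat 3 (-1.65, adjusted p = 0.0483). Bag2, a cochaperone, was at 10.28 and 8.60 but at 12.88 in rat 3, against 10.29 to 10.80, so that it differed by -1.10 without rat 3 and by 0.049 with it.

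**Figure D5:**
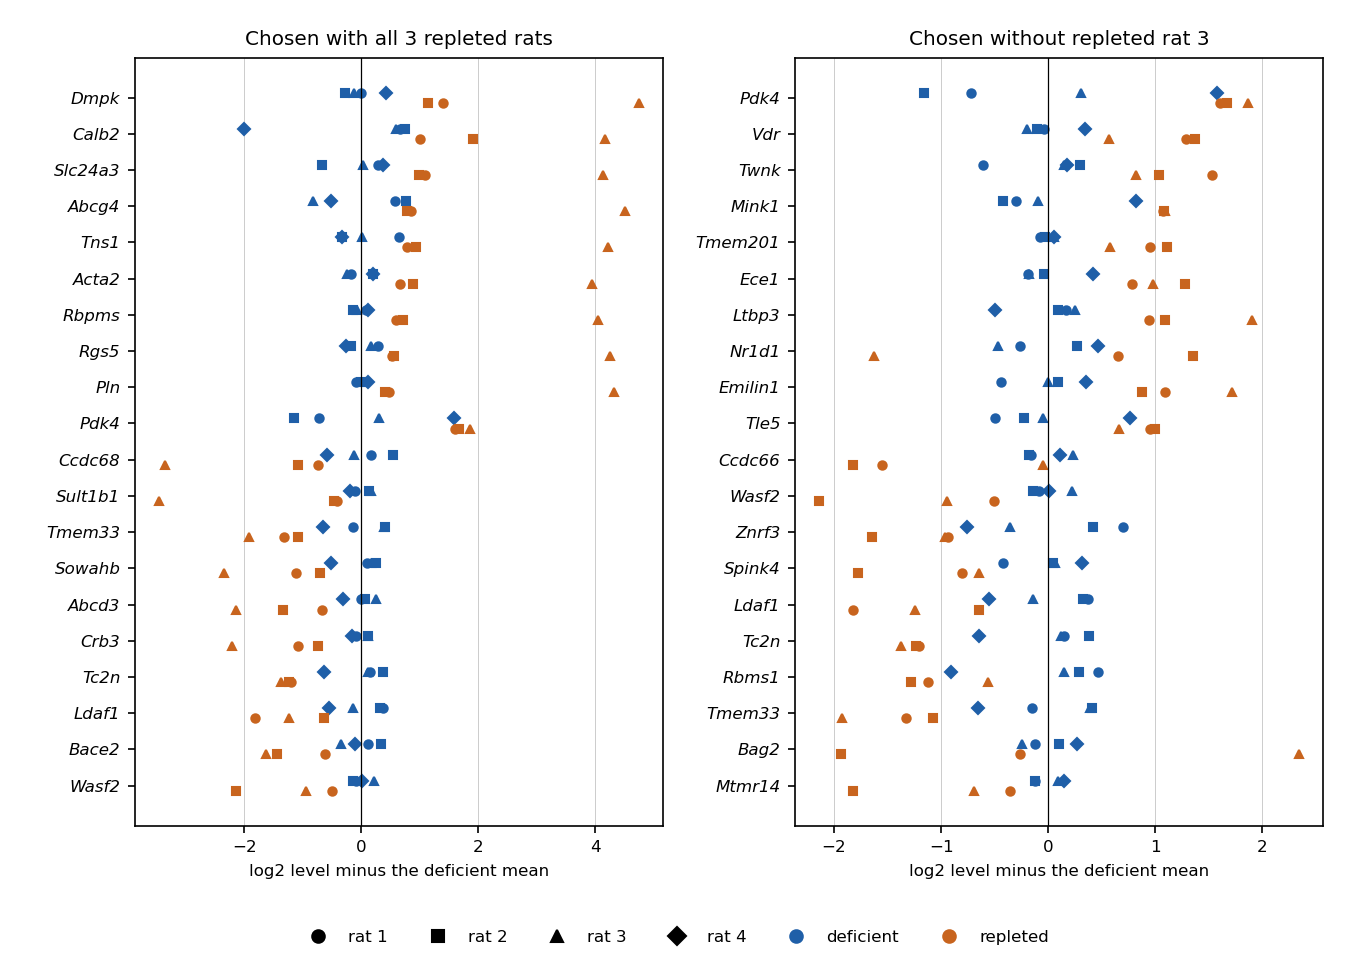
Genes chosen by the rule with all 3 repleted rats (left) and without repleted rat 3 (right), as log2 level minus the deficient mean (horizontal axis), with deficient rats in blue, repleted rats in orange and the marker shape giving the rat number. In 9 of the 10 higher genes on the left repleted rat 3 (triangle) is far to the right of repleted rats 1 and 2, and on the right it goes the other way for Nr1d1 and Bag2.

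Shroom3, which shapes the apex of epithelial cells, gave the 1 probe set that passed without rat 3. That probe set was at 6.89 and 6.33 in repleted rats 1 and 2 and at 9.63 in rat 3, against 9.64, 9.57, 8.79 and 9.76 in the deficient rats. Rats 1 and 2 were near the bottom of the intensity range and rat 3 was among the deficient rats. The difference was -2.83 ± 0.37 (SE, adjusted p = 0.00729) without rat 3 and -1.82 ± 0.53 (SE, adjusted p = 0.214) with it. The brighter Shroom3 probe set, at 12.08, 11.86 and 11.57 against 11.81 to 12.29, gave -0.13 and -0.00038, so the probe sets of this gene disagree. The call was lost when only the deficient and repleted rats were fitted (adjusted p = 0.730), with the larger pseudocount (-1.67, adjusted p = 0.0866) and without repleted rat 2 as well (-2.55, adjusted p = 0.0537), where repleted rat 1 is assumed to vary like the other groups.

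The difference at the bottom was set against that at the top of the same rats by taking bottom minus top within each rat. Of 26517 probe sets 1 passed (0.00377%), again the dim one of Shroom3, at -2.84 (adjusted p = 0.0325) and at -3.13 (adjusted p = 0.0319) without rat 3. At an unadjusted p under 0.05 there were 2837 (10.7%) and 1907 (7.19%). At the top itself 0 passed with or without rat 3 (0%), and 3309 (12.5%) and 1958 (7.38%) had an unadjusted p under 0.05. Slc11a2 and Cybrd1 differed between the segments by -1.41 (adjusted p = 0.494) and -1.16 (adjusted p = 0.596) with all rats, and by -0.088 and -0.018 without rat 3. Among the goblet cell genes, Zg16 and Tff3 differed between the segments by -0.30 (adjusted p = 0.656) and 0.056 (adjusted p = 0.949).

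Copper and zinc handling had a median of -0.16 over 23 genes, 18 of them lower and 5 with an unadjusted p under 0.05, and 0.0026 without rat 3, with 2 such genes. Slc30a7, which loads zinc into the Golgi, had the lowest p of them and was at 10.75, 10.33 and 9.48 against 11.50, 11.30, 11.23 and 11.20. All repleted rats lay below the deficient rats. The difference was -1.12 ± 0.25 (SE, adjusted p = 0.142) and -0.77 ± 0.23 (SE, adjusted p = 0.396) without rat 3. It passed without deficient rat 4 (-1.16, adjusted p = 0.0402) and without repleted rat 1 (-1.40, adjusted p = 0.0299). Slc30a10, a manganese exporter, differed by -2.51 with all rats and -0.69 without rat 3. Immediate early and heat shock genes had medians of -0.042 and -0.065 over 17 genes, mitochondrial respiration 0.0028 and 0.059 over 23, cell cycle genes 0.023 and -0.089 over 30, and oxidative stress and xenobiotic genes -0.14 and 0.12 over 22. Centring each array on its median, which moved the median of all probe sets to -0.16, put these 4 lists at -0.30, -0.31, -0.25 and -0.30 with all rats. Ligands of the epidermal growth factor family had medians of -0.099 and -0.078 over 10 genes, arachidonate enzymes -0.27 and -0.23 over 11, and red blood cell markers -0.038 and 0.12 over 3.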

How the data were processed

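RNA from 7 villus bottom arrays was compared, 3 repleted and 4 deficient rats. The authors deposited 1 intensity per probe set and array on a linear scale, per the file headers and the values. The signal algorithm is not given in the sources used here, and the values show each of these arrays scaled to a trimmed mean of 2501, which hides any change common to most genes. No detection calls were used. Median intensities were 639 to 960. The villus top array of repleted rat 3 had a median of 1179 and a maximum of 1209242. The other villus top arrays had medians of 597 to 757 and maxima up to 390588. Top levels, and differences between the segments, that include rat 3 rest on that array. A pseudocount of 43.5 (the 10th percentile) was added before the log2 transform, and the 44 villus arrays were quantile normalised. Probe sets were kept where at least 3 villus arrays exceeded their 40th percentile, 26517 of 31042, and the brightest probe set stands for a gene. Of the probe sets 20826 had 1 symbol, 436 several and 9780 none.

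All 22 bottom arrays entered 1 limma fit of 6 groups (version 3.58.1, R version 4.3.3, the data.table package in version 1.17.8, eBayes with a trend), which shares the spread. The groups were control, deficient and repleted Wistar rats and Belgrade (b/b) rats given no iron or iron for 3 or 6 days. Control rats 1 and 2 were near identical, as were Belgrade rats 1 and 2 given no iron, and each pair was averaged (20 counted samples). With only the deficient and repleted rats fitted, 2072 probe sets instead of 3292 had an unadjusted p under 0.05. The p-values measure the spread between these rats. The fit was tested on simulated data. The labels state no pairing of rats between groups by their number. Deviations of same-number rats correlated at -0.05, -0.01 and -0.05, and those of other rats at -0.05 to 0.09. With so few rats these values cannot exclude a pairing. The members and lists were chosen with earlier results of these data known. Named were 8 genes always (Slc11a2, Cybrd1, Slc40a1, Heph, Tfrc, Hmox1, Alox15, Xist), up to 10 higher and 10 lower genes by the rule in the text for each of the 2 settings, and up to 4 members of each list by p. Other genes were named after their values were seen.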

Additional observations from a re-analysis of the deposited data

Results flagged for a closer look

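In 6 of 89 genes and list levels tested, 1 of the 4 deficient rats lay so far from the others that its gap to the nearest, divided by the range, exceeded Dixon's 95% critical value. Chance flags about 1 in 20 groups. Deficient rat 4 was the low one for Slc11a2 (16.00, others 16.93 to 17.03), Cybrd1 (13.42, others 16.07 to 16.16), Slc30a10 (12.26, others 14.23 to 14.57) and Calb2 (6.97, others 9.56 to 9.72). Deficient rat 1 was the low one for Twnk (9.62, others 10.38 to 10.53) and the high one for exocrine pancreas markers (15.43, others 7.87 to 7.94). The dim Shroom3 probe set differed between villus bottom and top in its repletion difference, by -2.84 (adjusted p = 0.0325, limma).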

How the results depend on the processing

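With all 3 repleted rats the count of called probe sets was 0 under every alternative to the processing except eBayes without a trend (5), and leaving out 1 rat at a time gave 0 to 374. Leaving out deficient rat 4 together with repleted rat 3, an alternative added after seeing the data, gave 105. Without repleted rat 3 the count of 1 became 0 with the larger pseudocount and with only deficient and repleted rats fitted, 2 with the muscle marker covariate, 8 with all rats counted separately and 13 without a trend, and 1 to 105 when a further rat was left out. The replicate block (rat number) gave 864 without rat 3 and 0 with it, and the labels state no pairing behind that number. Bottom minus top, with 1 call, gave 0 with the values as deposited, median centring, all rats counted separately, only 2 groups fitted or the replicate block, 2 with either other pseudocount or without the filter, and 0 to 31 when 1 rat was left out. Over 60 named genes and 12 alternatives to the processing, 705 of 720 values kept direction and call. Most of these genes were chosen by their values in the same data, and only Shroom3 was called in the main fits. For the others, keeping the call means staying uncalled, so this count is little support for any difference. Signs turned for Slc40a1 (0.053) and Hmox1 (0.42) with the muscle marker covariate and for Hmox1 (0.11) and Alox15 (0.042) with array weights. Leaving out 1 rat at a time gave ranges of -2.29 to 0.086 for Slc11a2, -1.45 to 0.15 for Slc40a1, -1.31 to 0.56 for Hmox1 and -1.13 to 0.40 for Alox15, where the sign turned only when the rat left out was repleted rat 3. Median centring moved the median of all probe sets to -0.16 with all rats, and leaving the values as deposited moved it to 0.087, so differences below that size carry no direction. The arrays give no count of molecules, and dim probe sets such as those of Hpx, Slc34a2 and Shroom3 depend most on the pseudocount.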

Other observations

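The 17 immediate early and heat shock genes had no common direction with all rats, 8 being higher and 9 lower, and Fos and Egr1, chosen after their values were seen, had the lowest differences among them. Fos, an immediate early transcription factor, differed by -1.87 at the bottom with all rats and by -1.24 without repleted rat 3, and Egr1, another of these, by -1.35 and -1.64. Hspa1a, a heat shock protein (1.39), Nr4a1, a nuclear receptor (0.93), and Ier3 (0.62) were higher with all rats. Neither Fos nor Egr1 passed with all rats (adjusted p = 0.251 and 0.402, limma), and their groups overlapped, since deficient rat 4 was low for both (11.48 and 11.37). Without deficient rat 4, Fos was at -2.58 and passed (adjusted p = 0.0242).

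Of 13 enteric nerve and glia markers 9 were higher and 4 lower, with all rats and without repleted rat 3, and without it 1 higher and 1 lower had an unadjusted p under 0.05. The lower one was Elavl4, a neuronal RNA-binding protein (-2.06, and -0.73 with all rats). Among the higher ones, chosen after their values were seen, S100b, a glial calcium-binding protein, differed by 1.68 with all rats and by 1.53 without repleted rat 3, and Sox10, a glial transcription factor, by 1.69 and 1.73, both without overlap between the groups. Uchl1, a neuronal hydrolase, was at 9.56, 9.52 and 12.43 in the repleted rats and at 8.76, 6.74, 9.31 and 7.90 in the deficient rats, again without overlap. Its difference was 2.33 with all rats and 1.37 without repleted rat 3, and none of these 3 passed.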
